A study of Saccharomyces cerevisiae with 6 samples.

Results

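Of the 7126 yeast genes counted, 1185 were nuclear genes of middle length that lie away from any annotated gene on the opposite strand. They were chosen from the annotation alone: a name that begins with Y, a single counted exon, an end minus a start from 1000 bp to under 4000 bp, and no feature on the other strand of the same chromosome that overlaps the gene or lies within 500 bp of either end. The conditions other than distance left 3271 genes, and the distance condition left out 2086 of these, of which 288 overlapped an opposite-strand feature. The 1185 genes stand on all 16 nuclear chromosomes, 617 on the plus and 568 on the minus strand, with a median length of 1686 bp. Their nearest opposite-strand feature lay at a median of 1373 bp and at most 9376 bp. At the edge of the rule, 65 of them had that neighbour over 500 and up to 550 bp away, and 80 genes left out had it over 450 and up to 500 bp away. All 1185 begin with ATG and end in a stop codon in the reference genome, so they are open reading frames without the untranslated regions.

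Strand-specific total RNA of budding yeast was sequenced in 6 libraries, 2 of each strain. Cells were cultured in YPD, a rich medium, at 30 °C, and RNA was taken after a shift to 39 °C that lasted 2 h. The strains are all of the S288C background and mating type a, and all are labelled as carrying leu2D1 and lys2-128d. The ck2ts strain, a mutant of casein kinase 2, has the alleles cka1Δ0::KanMX6 and cka2D225N::NAT, with bar1D::NAT, and holds HHF1-PGAL1/10-FLAG-HHT1-URA3 at ura3-52, which is a histone construct under a galactose promoter. The spt6-7SA strain lacks the chromosomal copy of the histone chaperone gene (spt6D::kanMX6), which is replaced by FLAG-spt6 7S-A on the plasmid pcc11, with CEN and URA3 as its elements. It further carries his3D200, ura3Δ0, bar1D::KanMX6 and the tag IWS1-13MYC::HIS3, and has no histone construct. The wild type (WT) has bar1D::NAT and the same histone construct at ura3-52 as ck2ts, with both kinase genes unaltered. Effects of the spt6 allele therefore cannot be told apart from those of the plasmid, the tag, the markers and the missing construct. Nor can effects of the kinase alleles in ck2ts be told apart from those of the KanMX6 and NAT markers at these genes.

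The labels were checked on the altered genes. CKA1, one catalytic subunit gene, stood at 3.13 and 1.84 sense counts per 1000000 sense reads (CPM) in ck2ts and at 49.5 and 56.5 CPM in spt6-7SA, against 61.9 and 60.5 CPM in WT. HIS3 stood at 7.87 and 6.38 CPM in spt6-7SA and at 44.7 and 54.3 CPM in WT. LEU2, labelled leu2D1 in every strain, gave 0.0155 and 0.0737 CPM in ck2ts and 47.6 and 48.9 CPM in spt6-7SA, against 46.3 and 55.1 CPM in WT. So the 3 strains, labelled alike at LEU2, were not alike: ck2ts had almost no reads there, while spt6-7SA and WT had reads. The label does not give the extent of the deletion, and counts per gene do not show which part of LEU2 gave the reads. Effects of the kinase alleles in ck2ts cannot be told apart from those of this difference at LEU2. CKA2 stood at 69.5 and 58.5 CPM in ck2ts and at 88.6 and 95.7 CPM in spt6-7SA, against 115 and 108 CPM in WT, and was lower in ck2ts (log2 fold change -0.80, adjusted p = 0.000428). Counts per gene cannot check the point changes in CKA2 and SPT6. Libraries held 56307173 to 83375420 sense reads and 2799589 to 3876104 antisense reads in annotated features. The labels do not say whether the 2 libraries of a strain come from separate cultures, so each p-value rests only on differences among these libraries, which may be technical.

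Spt6 travels with RNA polymerase II and puts nucleosomes back behind it. Where nucleosomes are not restored over a transcribed gene, promoters hidden inside or at the end of the gene can be used, and some of them face the other way and give antisense RNA. Casein kinase 2 is a constitutive kinase with many substrates, Spt6 among them, and the series asks whether loss of the kinase and loss of its sites in Spt6 change such spurious transcription. Where a gene on the other strand runs into a gene, antisense reads over it can also come from that neighbour. This is why genes with no such neighbour are of interest. The rule concerns annotated features only, and says nothing of unannotated transcripts.

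Antisense RNA that enters a gene from beyond it crosses the gene's 3' end first. The last 300 bases of 4 genes are shown here as the antisense strand runs, 5' to 3'. They are examples picked by hand from the genes named below, not by a rule. SNF3 (chrIV:113935-114234, minus strand) and MDM30 (chrXII:859037-859336, minus strand) gained antisense reads in both mutants. PRP43 (chrVII:281634-281933, plus strand) gained them in ck2ts with the increase in its 3' part. GAL10 (chrII:276253-276552, plus strand) held almost none of its antisense reads in its 3' part. Capitals mark the motif TATAAA where a search of both strands found it. Bases come from the RefSeq reference of build R64, the build of the counts.
SNF3: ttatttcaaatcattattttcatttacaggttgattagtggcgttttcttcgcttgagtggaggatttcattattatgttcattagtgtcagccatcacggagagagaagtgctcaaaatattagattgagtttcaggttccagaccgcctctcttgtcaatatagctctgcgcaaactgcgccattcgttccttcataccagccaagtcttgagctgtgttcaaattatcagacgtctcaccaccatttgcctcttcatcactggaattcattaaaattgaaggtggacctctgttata
MDM30: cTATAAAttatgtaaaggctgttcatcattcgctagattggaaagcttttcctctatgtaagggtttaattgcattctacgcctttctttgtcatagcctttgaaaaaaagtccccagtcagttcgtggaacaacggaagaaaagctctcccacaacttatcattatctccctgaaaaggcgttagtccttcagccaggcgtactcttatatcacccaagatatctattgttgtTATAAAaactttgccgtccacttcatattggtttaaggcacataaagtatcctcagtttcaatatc
PRP43: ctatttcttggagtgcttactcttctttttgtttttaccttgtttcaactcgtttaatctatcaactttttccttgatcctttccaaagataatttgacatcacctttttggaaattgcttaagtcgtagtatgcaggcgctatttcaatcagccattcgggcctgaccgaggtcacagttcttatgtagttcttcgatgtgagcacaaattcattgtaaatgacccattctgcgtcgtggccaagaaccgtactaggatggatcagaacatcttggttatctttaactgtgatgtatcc
GAL10: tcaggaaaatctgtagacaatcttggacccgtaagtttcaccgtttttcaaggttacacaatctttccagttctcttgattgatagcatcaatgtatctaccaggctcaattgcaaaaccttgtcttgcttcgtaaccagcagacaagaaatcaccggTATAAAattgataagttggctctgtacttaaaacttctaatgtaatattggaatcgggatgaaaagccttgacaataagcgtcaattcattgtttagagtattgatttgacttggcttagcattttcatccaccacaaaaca

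TATAAA stands 2 times in the MDM30 window, at bases 2 and 235, and 1 time in that of GAL10, at base 159. The other 2 windows hold none on either strand. Across all 1185 genes, the window held TATAAA on the antisense strand in 10.2% and on the sense strand in 12.4%, and on either in 20.3%. Among the 2086 genes of the same length with an opposite-strand neighbour these shares were 11.1%, 11.9% and 20.1%. Such a match is a property of the sequence and shows no binding or start site, and the window is not the 3' part that the authors counted, whose extent is not given in the sources used here.

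Antisense reads over these genes were more abundant in both mutants than in WT. Levels are antisense reads per 1000000 sense reads of the same library (antisense CPM), scaled by the sense library size and its TMM factor, so a change is relative to sense RNA. The median gene stood at 2.34 and 1.75 antisense CPM in ck2ts and at 1.52 and 1.57 in spt6-7SA, against 0.773 and 0.914 in WT. Both libraries of each mutant lay above both WT libraries, and the ck2ts pair lay above the spt6-7SA pair. As a share of the gene's own sense reads, the median antisense level was 3.61% and 2.85% in ck2ts, with 2.27% and 2.37% in spt6-7SA, against 1.29% and 1.43% in WT. In reads, the median gene had 151 and 95 antisense reads in ck2ts and 101 and 107 in spt6-7SA, against 62 and 53 in WT, so many single genes rest on few reads. The counts come from bulk cultures, so more antisense RNA in each cell and antisense RNA in more of the cells cannot be told apart.

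Summed over the 1185 genes, antisense reads reached 6200 and 5420 CPM in ck2ts and 4720 and 4760 CPM in spt6-7SA, against 3330 and 3440 CPM in WT. The sum was 1.72 ± 0.168 times that of WT in ck2ts and 1.4 ± 0.0326 times in spt6-7SA (propagated SD, n = 2 libraries each). The same genes held 11.8% and 10.2% of all antisense reads of the ck2ts libraries and 10.2% and 10.1% in spt6-7SA, against 6.90% and 7.13% in WT. Their share of sense reads was 19.4% and 19.5% in ck2ts, with 20.8% and 20.9% in spt6-7SA, against 21.5% and 21.7% in WT. Gene by gene and with no filter, the median ratio was 1.96-fold in ck2ts and 1.5-fold in spt6-7SA, on the scale of CPM plus a pseudocount of 0.1. Antisense was higher than in WT for 939 genes (79.2%) in ck2ts and for 921 (77.7%) in spt6-7SA. Over all 7126 genes these shares were 68.7% in ck2ts and 62.5% in spt6-7SA, with median ratios of 1.38-fold and 1.15-fold. Among the 2086 genes of the same length with an opposite-strand neighbour, the shares were 81.0% and 67.5%. Both comparisons use the same WT libraries. With 2 libraries against 2 an exact permutation test of such sums cannot go below p = 0.33, so none is given.

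**Figure D1:**
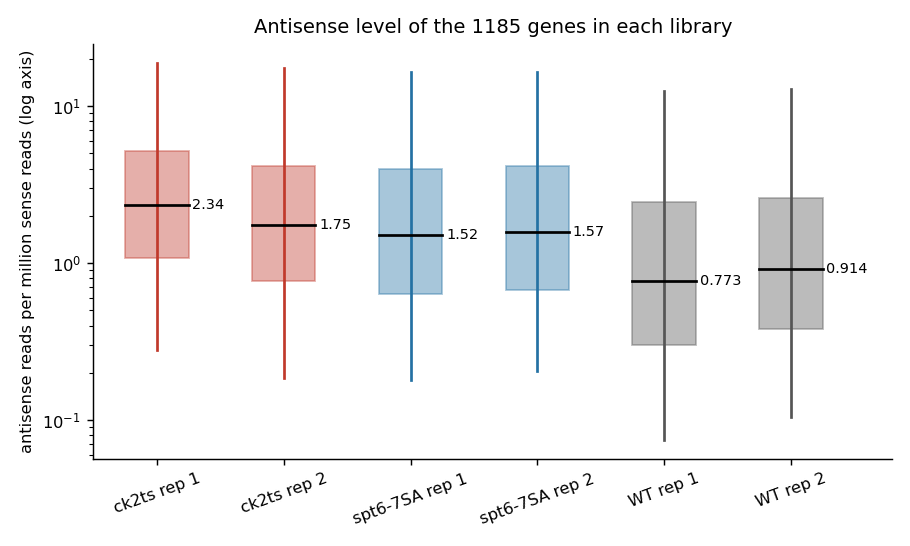
Antisense reads per 1000000 sense reads (log axis) of the 1185 genes in each of the 6 libraries. Boxes span the quartiles, lines mark the medians and whiskers the 5th to 95th percentile; the ck2ts medians of 2.34 and 1.75 and the spt6-7SA medians of 1.52 and 1.57 lie above the WT medians of 0.773 and 0.914.

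Tested gene by gene over the whole table, antisense reads of 730 of the 1168 genes with enough reads rose in ck2ts and 101 fell, by the edgeR quasi-likelihood test at an adjusted p of 0.05. That is 62.5% up, beside 48.3% of all 6558 genes tested, and 8.65% down, beside 13.8%. In spt6-7SA 560 genes rose and 73 fell, or 47.9% up beside 31.2% of all genes and 6.25% down beside 10.5%. Set directly against ck2ts, spt6-7SA had more antisense reads at 196 genes and fewer at 429, or 16.8% beside 15.1% and 36.7% beside 32.5%, so this last comparison stood near the level of all genes. Among all genes with no opposite-strand feature over them, 50% rose and 11.9% fell in ck2ts, and 31.9% rose and 9.51% fell in spt6-7SA. Scaled instead by the antisense library size and its TMM factor, 560 genes of the set rose and 224 fell in ck2ts, 430 rose and 145 fell in spt6-7SA, and spt6-7SA had more than ck2ts at 308 and fewer at 342. Without spt6-7SA replicate 1 or 2, the 73 falls in spt6-7SA came to 36 or 43 and the 196 genes higher than ck2ts to 122 or 117, and without replicate 1 the 429 lower ones to 279.

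Set beside genes of the same length with an opposite-strand neighbour, the share of genes that rose was much the same in ck2ts and higher here in spt6-7SA. Of the 2064 such neighboured genes tested, 1329 rose (64.4%) and 174 fell in ck2ts, and 716 rose (34.7%) and 197 fell in spt6-7SA. Their unfiltered median ratio was 2.06-fold in ck2ts and 1.25-fold in spt6-7SA, beside 1.96-fold and 1.5-fold for the genes away from neighbours. Genes of the 2 sets differ in other ways too: the next gene downstream on the same strand lay at a median of 455 bp for the isolated genes and 1971 bp for the others, and the part of this in the result was not tested. The difference between the sets was not tested.

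UTP5 and PPZ1 led the rises in ck2ts. UTP5 (chromosome IV, 1267471 to 1269402, plus strand), which encodes a subunit of the processome that makes the small ribosomal subunit, had 39.2 and 27.3 antisense CPM in ck2ts and 1.44 and 1.5 in spt6-7SA, against 1.07 and 1.43 in WT. Only the ck2ts libraries stood apart, and the rise there was 4.74 on the log2 scale (SE 0.21, adjusted p = 1.69e-10), while spt6-7SA did not pass (0.25, SE 0.22, adjusted p = 0.383). PPZ1 (chromosome XIII, 239458 to 241536, minus strand), a protein phosphatase gene, had 7.65 and 6.45 antisense CPM in ck2ts and 0.572 and 0.586 in spt6-7SA, against 0.224 and 0.311 in WT. Here both mutants lay above WT and the libraries of the 3 strains did not overlap. The log2 fold change was 4.74 in ck2ts (SE 0.26, adjusted p = 9.39e-10) and 1.14 in spt6-7SA (SE 0.30, adjusted p = 0.00602).

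SNF3 (chromosome IV, 111580 to 114234, plus strand), the gene of a glucose sensor in the plasma membrane whose 3' end is shown above, led the rises in spt6-7SA and was among the 3 largest in ck2ts. It had 10.9 and 4.63 antisense CPM in ck2ts and 7.99 and 6.33 in spt6-7SA, against 0.249 and 0.362 in WT. The mutants' libraries overlapped each other and both groups lay far above WT. The log2 fold change was 4.69 in ck2ts (SE 0.50, adjusted p = 0.000147) and 4.57 in spt6-7SA (SE 0.50, adjusted p = 0.000383). Its sense reads were 26.5 and 33.7 CPM in ck2ts and 14.8 and 16.4 CPM in spt6-7SA, against 30.2 and 30.8 CPM in WT, so sense fell in spt6-7SA (log2 fold change -0.97, adjusted p = 0.00113) and did not pass in ck2ts (-0.02, adjusted p = 0.904). The nearest opposite-strand gene is 4472 bp away.

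Of the 10 largest rises in ck2ts, the remaining 7 were NNF2, IST2, RTG3, ECM22, PRP43, NFT1 and SKG3, with log2 fold changes of 4.05 to 4.69. RTG3, a factor that turns on genes when mitochondria fail, had 4.58 and 3.02 antisense CPM in ck2ts and 0.526 and 0.366 in spt6-7SA, against 0.137 and 0.276 in WT. ECM22, a regulator of sterol genes, had 7.22 and 6.56 antisense CPM in ck2ts and 0.241 and 0.191 in spt6-7SA, against 0.461 and 0.293 in WT. ECM22 was thus high in ck2ts alone, and spt6-7SA set against ck2ts differed by -4.99 on the log2 scale (SE 0.27, adjusted p = 2.51e-09). That was the largest fall between the mutants, followed by UTP5 (-4.50) and PPZ1 (-3.60). NNF2 showed another pattern, with 4.17 and 2.60 antisense CPM in ck2ts and 0.857 and 0.909 in spt6-7SA, against 0.150 and 0.104 in WT. Both mutants passed at NNF2, with log2 fold changes of 4.69 and 2.75.

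In spt6-7SA the largest rises after SNF3 were at MCM10, FUN26, PRS1, YLL054C, DET1, MDM30, VPS70, VAM6 and HRD3, with log2 fold changes of 3.29 to 4.44. MCM10 (chromosome IX, 61013 to 62728, minus strand), which encodes a DNA replication factor, had 9.45 and 8.35 antisense CPM in spt6-7SA and 7.40 and 4.2 in ck2ts, against 0.486 and 0.311 in WT. Every mutant library exceeded both WT libraries, and spt6-7SA exceeded ck2ts (log2 difference 0.61, SE 0.22, adjusted p = 0.0353). FUN26, a vacuolar nucleoside transporter gene, had 7.27 and 8.09 antisense CPM in spt6-7SA and 6.32 and 6.47 in ck2ts, against 0.361 and 0.673 in WT. MDM30, whose F-box protein is needed for mitochondrial fusion, had 4.47 and 3.94 antisense CPM in spt6-7SA and 4.74 and 3.21 in ck2ts, against 0.287 and 0.466 in WT. At both genes the mutants did not differ by the test (log2 difference 0.26 at FUN26, adjusted p = 0.269, and 0.08 at MDM30, adjusted p = 0.796). All 10 of these genes also rose in ck2ts, with log2 fold changes of 2.21 to 4.69.

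**Figure D2:**
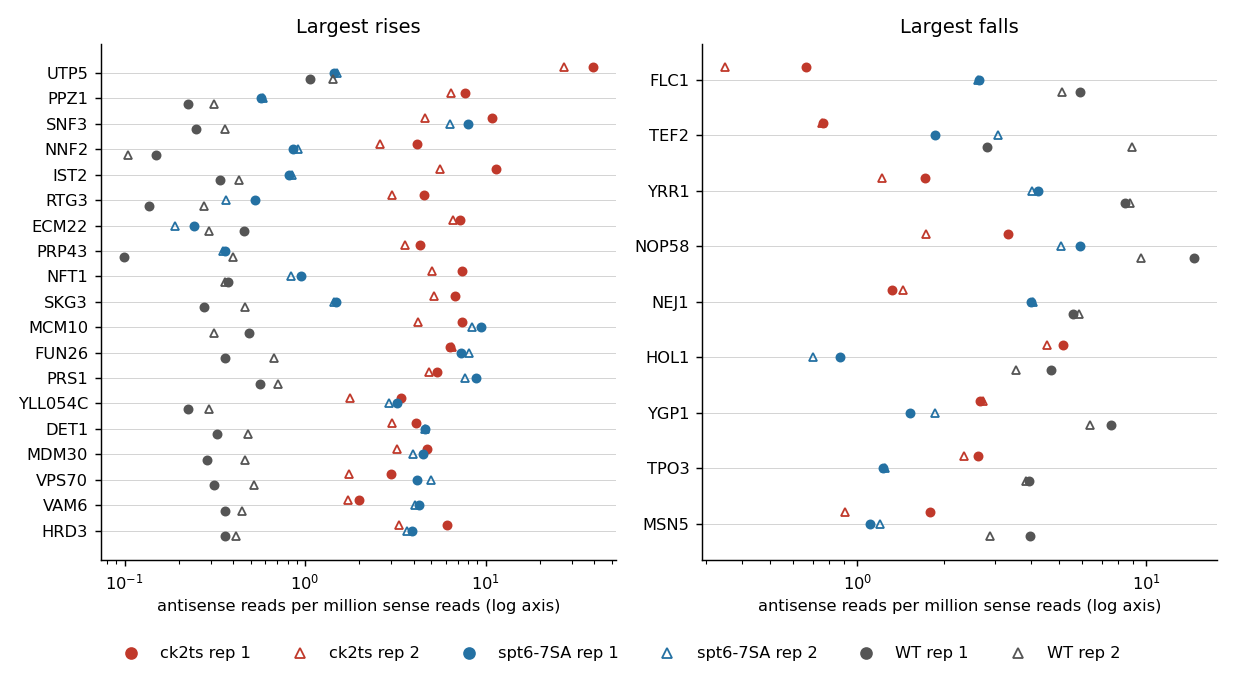
Antisense reads per 1000000 sense reads (log axis) of the genes with the largest rises and the largest falls, 1 point per library, coloured by strain. SNF3 and MCM10 lie high in all 4 mutant libraries, UTP5 and ECM22 in the 2 ck2ts libraries, and HOL1 is low in the 2 spt6-7SA libraries alone.

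At PRS1 and VPS70, antisense reads rose in spt6-7SA and sense reads fell. PRS1 (chromosome XI, 107316 to 108599, plus strand), for an enzyme that makes the ribose phosphate precursor of nucleotides, had 8.79 and 7.71 antisense CPM in spt6-7SA and 5.37 and 4.85 in ck2ts, against 0.561 and 0.707 in WT. Its sense reads were 94.3 and 88.7 CPM in spt6-7SA and 118 and 122 CPM in ck2ts, against 356 and 327 CPM in WT. Antisense against sense, tested in 1 model, rose by 5.61 on the log2 scale in spt6-7SA. VPS70, a vacuolar protein sorting gene, had 4.18 and 4.98 antisense CPM in spt6-7SA and 2.99 and 1.75 in ck2ts, against 0.312 and 0.518 in WT. Its sense reads fell in spt6-7SA alone, to 27.5 and 29.1 CPM, and stood at 115 and 124 CPM in ck2ts, against 102 and 105 CPM in WT. These are values side by side, and whether one strand's reads bear on the other's was not tested.

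Fewer genes lost antisense reads. FLC1, for a putative flavin carrier, had 0.666 and 0.350 antisense CPM in ck2ts and 2.63 and 2.62 in spt6-7SA, against 5.87 and 5.11 in WT. The 3 strains did not overlap, and the fitted log2 fold change was -3.41 in ck2ts (SE 0.26, adjusted p = 2.57e-08) and -1.06 in spt6-7SA (SE 0.22, adjusted p = 0.000988). YRR1, a multidrug resistance regulator, had 1.72 and 1.22 antisense CPM in ck2ts and 4.2 and 4.03 in spt6-7SA, against 8.45 and 8.77 in WT. NEJ1, a gene for the joining of broken DNA ends, had 1.32 and 1.44 antisense CPM in ck2ts and 3.99 and 4.06 in spt6-7SA, against 5.58 and 5.83 in WT. TEF2 also passed in ck2ts (log2 fold change -2.94, adjusted p = 0.0197), but 92.5% of its 50-base stretches occur elsewhere in the genome, its WT libraries differed (2.80 and 8.92 CPM), and it no longer passed without either ck2ts library.

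HOL1 (chromosome XIV, 728426 to 730186, minus strand), a polyamine transporter gene, had 0.872 and 0.704 antisense CPM in spt6-7SA and 5.16 and 4.52 in ck2ts, against 4.67 and 3.54 in WT. The spt6-7SA libraries alone were low, and the fall was 2.38 on the log2 scale (SE 0.22, adjusted p = 8.53e-07), while ck2ts did not pass (0.23, adjusted p = 0.314). Its sense reads were 111 and 125 CPM in spt6-7SA and 105 and 118 CPM in ck2ts, against 105 and 117 CPM in WT. YGP1, a secreted cell wall glycoprotein gene of the stress response, had 1.52 and 1.86 antisense CPM in spt6-7SA and 2.65 and 2.71 in ck2ts, against 7.51 and 6.38 in WT, with sense reads of 1350 and 1050 CPM in spt6-7SA and 1960 and 1610 CPM in ck2ts, against 291 and 260 CPM in WT. TPO3, another polyamine transporter gene, fell in both mutants (log2 fold change -1.64 in spt6-7SA and -0.64 in ck2ts), with 40.7% of its 50-base stretches found elsewhere.

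Compared directly, spt6-7SA exceeded ck2ts most at FBP26, APE1, CLG1 and YLR287C. FBP26, which encodes a phosphatase of fructose bisphosphate, had 3.28 and 3.15 antisense CPM in spt6-7SA and 0.635 and 0.664 in ck2ts, with 0.436 and 0.328 in WT. APE1, a vacuolar aminopeptidase gene, had 36.6 and 35.5 antisense CPM in spt6-7SA and 10.5 and 5.97 in ck2ts, with 25 and 27.1 in WT. The log2 difference between the mutants was 2.31 at FBP26 (SE 0.26, adjusted p = 3.24e-06) and 2.12 at APE1 (SE 0.20, adjusted p = 1.11e-06). They differ in where WT lies: WT was nearest to ck2ts at FBP26 and nearest to spt6-7SA at APE1.

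The sense strand moved both ways. Sense reads rose at 472 and fell at 352 of the 1184 genes tested in ck2ts, or 39.9% beside 32.5% of all genes and 29.7% beside 32.3%. In spt6-7SA 396 rose and 288 fell, or 33.4% beside 26.7% and 24.3% beside 24.1%. Of the 730 genes whose antisense rose in ck2ts, sense fell at 231, rose at 286 and did not pass at 213. Of the 560 in spt6-7SA, sense fell at 165, rose at 172 and did not pass at 223. Across the 1185 genes the antisense and sense log2 ratios had a Spearman rho of -0.14 in ck2ts and -0.16 in spt6-7SA, given as a description, since both ratios share libraries and depth.

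Tested against sense in 1 model, antisense rose at 615 and fell at 169 of 1168 genes in ck2ts. These are 52.7% beside 45.2% of all genes and 14.5% beside 16.3%. In spt6-7SA 453 rose and 126 fell, or 38.8% beside 27.5% and 10.8% beside 13.9%. The 126 falls came to 64 without spt6-7SA replicate 1 and 77 without replicate 2. Scaled by antisense totals, 494 rose and 284 fell in ck2ts, and 384 rose and 202 fell in spt6-7SA. PHO84 (chromosome XIII, 24037 to 25800, minus strand), the high-affinity phosphate transporter gene, led the rises in ck2ts. It had 18.9 and 15.5 antisense CPM in ck2ts and 8.29 and 7.42 in spt6-7SA, against 0.984 and 2.42 in WT. Its sense reads were 495 and 555 CPM in ck2ts and 879 and 803 CPM in spt6-7SA, against 2980 and 3140 CPM in WT, so both mutants were higher on one strand and lower on the other. The antisense log2 fold change was 3.37 in ck2ts (SE 0.36, adjusted p = 0.000102) and 2.24 in spt6-7SA (SE 0.35, adjusted p = 0.00182).

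The largest falls of antisense against sense in ck2ts were at TKL2, FLC1 and SUL1. SUL1, a sulfate permease gene, had 40.9 and 42.7 antisense CPM in ck2ts and 47.4 and 43.0 in spt6-7SA, against 51.9 and 47.0 in WT, and its antisense passed in neither mutant (log2 fold changes -0.24 and -0.13). Its sense reads were 23.2 and 17.3 CPM in ck2ts and 4.24 and 4.32 CPM in spt6-7SA, against 1.30 and 1.48 CPM in WT. The fall of antisense against sense therefore came with higher sense reads. TKL2, a minor transketolase gene, had 106 and 75.8 sense CPM in ck2ts and 23.6 and 23.1 in spt6-7SA, against 7.89 and 9.58 in WT, with antisense at 10.5 and 9.09 CPM in ck2ts and 18.3 and 20.5 CPM in spt6-7SA, against 19.6 and 19.7 CPM in WT. In spt6-7SA the largest such falls were at YGP1, HOL1 and HBT1. HBT1, a gene for a protein of mating cell shape, had 440 and 334 sense CPM in spt6-7SA and 787 and 471 in ck2ts, against 99.9 and 95 in WT, with antisense at 2.02 and 2.80 CPM in spt6-7SA and 1.63 and 1.49 CPM in ck2ts, against 3.56 and 3.14 CPM in WT.

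**Figure D3:**
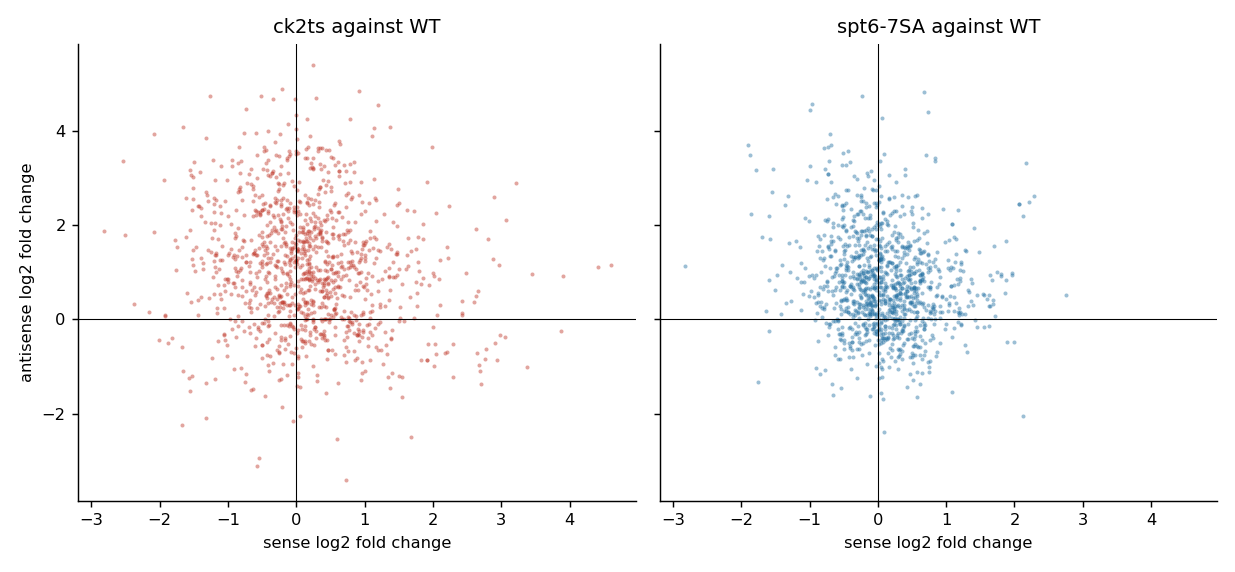
Fitted antisense against sense log2 fold change in ck2ts (left) and spt6-7SA (right) relative to WT, 1 point for each of the 1168 genes tested for antisense. Most points lie above 0 on the antisense axis, while they spread to both sides of 0 on the sense axis. By the unfiltered ratio of CPM plus 0.1, which is not plotted, antisense was higher for 939 genes in ck2ts and 921 in spt6-7SA. These are 79.2% and 77.7%, beside 68.7% and 62.5% of all genes. The Spearman rho of the unfiltered antisense ratio with the sense ratio was -0.14 and -0.16.

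By gene length class, the median ratio was highest in the middle class in ck2ts and lowest for the longest genes in spt6-7SA. Across the 1185 genes, length and the antisense log2 ratio had a Spearman rho of 0.19 in ck2ts and -0.04 in spt6-7SA. Whether the mutants differ in this was not tested. The 796 genes of 1000 to under 2000 bp had a median ratio to WT of 1.80-fold in ck2ts and 1.5-fold in spt6-7SA. For the 280 genes of 2000 to under 3000 bp it was 2.56-fold in ck2ts and 1.55-fold in spt6-7SA, and for the 109 of 3000 to under 4000 bp 2.08-fold and 1.21-fold. Antisense rose at 57.7%, 71.4% and 65.1% of the genes of these classes in ck2ts, and at 48.1%, 48.6% and 37.6% in spt6-7SA. These are shares of all genes of a class, tested or not. Neither the ratios nor the shares by length were taken over all genes or over the neighboured genes. Whether this pattern by length is particular to the set was therefore not tested. Per kb of gene, the antisense level dropped with length in each library. In the shortest class the median was 1.48 and 1.19 antisense CPM per kb in ck2ts and 1.18 and 1.18 in spt6-7SA, against 0.583 and 0.680 in WT. In the longest class it was 0.716 and 0.485 in ck2ts, with 0.319 and 0.327 in spt6-7SA, against 0.237 and 0.243 in WT. Mutant libraries lay above WT in each of these classes.

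WT sense level was split into quartiles at 16.1, 33.1 and 71.8 CPM per kb. In ck2ts the median antisense ratio was 1.76-fold in the lowest quartile, then 2.21, 2.30 and 1.53-fold. In spt6-7SA it was 1.41, 1.57, 1.62 and 1.33-fold, so in both mutants the middle quartiles were higher than the ends. The lowest quartile held the most antisense RNA per kb, with medians of 2.03 and 1.66 CPM in ck2ts and 1.64 and 1.71 in spt6-7SA, against 0.988 and 1.01 in WT. The highest quartile held 0.984 and 0.711 in ck2ts, with 0.580 and 0.627 in spt6-7SA, against 0.288 and 0.394 in WT. Sense itself moved across these quartiles, with median ratios from 1.69-fold in the lowest to 0.759-fold in the highest in ck2ts and from 1.42-fold to 0.827-fold in spt6-7SA. The quartiles were set from the WT libraries that also form the base of those sense ratios, so that trend is partly set by the split.

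**Figure D4:**
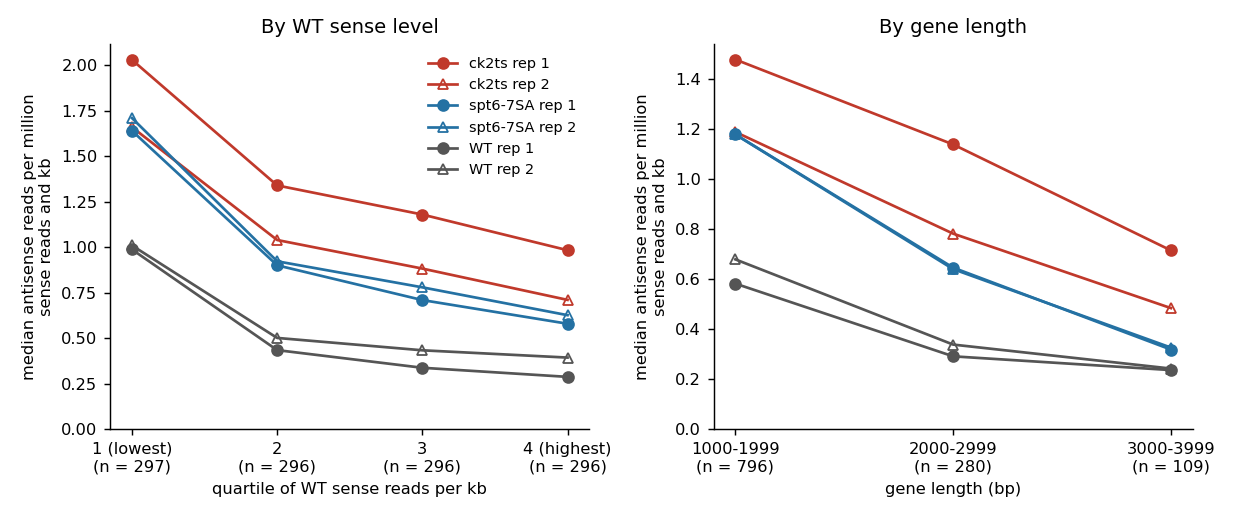
Antisense reads by gene length class and by quartile of the WT sense level, over all genes of each class with no read filter. The median antisense ratio to WT was 2.56-fold in ck2ts at 2000 to under 3000 bp. In spt6-7SA it was 1.21-fold at 3000 to under 4000 bp. By sense level, this ratio was higher in the middle quartiles than at the ends in both mutants.

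Within both length and sense level, the highest ck2ts median was 3.14-fold, in the 75 genes of 2000 to under 3000 bp in the third quartile, where spt6-7SA had 1.77-fold. The lowest spt6-7SA median was 0.938-fold, in the 24 longest genes of the highest quartile. The class of longest genes in the lowest quartile held only 15 genes. Distance to the next gene downstream on the same strand also moved with the ratio. With that gene at 0 to 250 bp (139 genes), over 250 and up to 500 bp (517) and more than 500 bp (529), the median ratio was 2.51, 2.03 and 1.83-fold in ck2ts and 1.65, 1.55 and 1.41-fold in spt6-7SA. Across the genes, this downstream distance and the antisense log2 ratio had a Spearman rho of -0.1 in each mutant. The ratio moved with the distance to the next same-strand gene upstream too. In the same distance classes it was 2.28, 2.19 and 1.77-fold in ck2ts and 1.64, 1.78 and 1.34-fold in spt6-7SA. The part of either distance in the result was not tested.

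Counts in a part at each end of the gene show where the antisense reads lay. In the 3 length classes, the median gene had 8.77 to 9.53% of its sense reads in the 5' part and 14.2 to 15.3% in the 3' part. The median gene had 0.248 and 0.184 antisense CPM in its 5' part in ck2ts and 0.226 and 0.220 in spt6-7SA, against 0.0748 and 0.0863 in WT. In its 3' part it had 0.232 and 0.203 in ck2ts, with 0.150 and 0.161 in spt6-7SA, against 0.112 and 0.121 in WT. The mutants were thus close to each other in the 5' part, while in the 3' part spt6-7SA lay between ck2ts and WT. A median of 5 to 16 reads in the 5' part lies behind these values.

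Of 770 genes tested in the 5' part, antisense rose at 416 and fell at 54 in ck2ts, or 54.0% beside 43.2% of all genes and 7.01% beside 11.7%. It rose at 404 and fell at 16 in spt6-7SA, or 52.5% beside 36.9% and 2.08% beside 5.92%. Of 747 tested in the 3' part, 304 rose and 51 fell in ck2ts, or 40.7% beside 27.8% and 6.83% beside 12.4%. In spt6-7SA 126 rose and 33 fell, or 16.9% beside 10.4% and 4.42% beside 7.76%. Of the 1291 neighboured genes of the same length tested in the 5' part, 63.9% rose and 5.58% fell in ck2ts, and 50.2% rose and 2.48% fell in spt6-7SA. Of the 1234 tested in the 3' part, 32.1% rose and 11.8% fell in ck2ts, and 7.94% rose and 9.0% fell in spt6-7SA. These differences between the sets were not tested. The spt6-7SA count of 126 rises was lower without WT replicate 1, without spt6-7SA replicate 1 and without spt6-7SA replicate 2. Each of these fits leaves 1 library in a group, so the drop does not show that the calls rest on any single library. For ck2ts the count of 304 was 187 without WT replicate 1. Of the falls, the 16 in the 5' part in spt6-7SA came to 3 to 9 and the 33 in the 3' part to 11 to 19 without any 1 of its 4 libraries (spt6-7SA and WT replicates 1 and 2), and the 54 in the 5' part in ck2ts to 31 without WT replicate 2. Scaled by antisense totals, 310 rose and 120 fell in the 5' part in ck2ts, 172 rose and 115 fell in the 3' part in ck2ts, and 85 rose and 61 fell in the 3' part in spt6-7SA.

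The change in the 3' part was tested against that in the 5' part of the same gene. It was smaller in the 3' than in the 5' part at 116 of 1048 genes in ck2ts and greater at 31, or 11.1% beside 10.3% of all genes and 2.96% beside 2.71%. In spt6-7SA it was smaller at 115 and greater at 12, or 11% beside 9.9% and 1.15% beside 1.33%. These shares are near the level of all genes. Among the neighboured genes of the same length the change was smaller at 17.0% in ck2ts and 17.0% in spt6-7SA, and greater at 2.72% and 0.708%. Leaving out 1 library lowered the count for smaller changes to 64 without WT replicate 1 and 73 without WT replicate 2 in ck2ts, and to 62 to 75 in spt6-7SA without any 1 of the 4 libraries of spt6-7SA and WT. The count for greater changes was 19 in ck2ts without ck2ts replicate 1 and 1 to 8 in spt6-7SA without any 1 of those 4. By length, the change was smaller in the 3' part at 5.53%, 13.9% and 30.3% of genes in ck2ts, from the shortest class to the longest. In spt6-7SA it was so at 3.89%, 17.5% and 32.1%. These are shares of all genes of a class, tested or not. Shares by length were not taken over all genes or over the neighboured genes, so whether this trend is particular to the set was not tested.

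The levels behind this trend differed by part. In the 5' part of the longest genes the median was 0.263 and 0.203 antisense CPM in ck2ts and 0.241 and 0.249 in spt6-7SA, against 0.0374 and 0.0690 in WT. In their 3' part it was 0.341 and 0.295 in ck2ts, with 0.135 and 0.191 in spt6-7SA, against 0.174 and 0.224 in WT. The spt6-7SA libraries of the longest genes thus stood above WT in the 5' part and overlapped WT in the 3' part. The median ratio in the 5' part went with length as 1.26, 1.63 and 1.82-fold in ck2ts and 1.35, 1.63 and 1.98-fold in spt6-7SA. In the 3' part it was 1.23, 1.48 and 1.27-fold in ck2ts and 1.14, 1.12 and 0.949-fold in spt6-7SA. These ratios are of CPM plus 0.1, a pseudocount above the WT medians of the 5' part and near those of the 3' part, so they understate the changes, and more so in the 5' part.

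**Figure D5:**
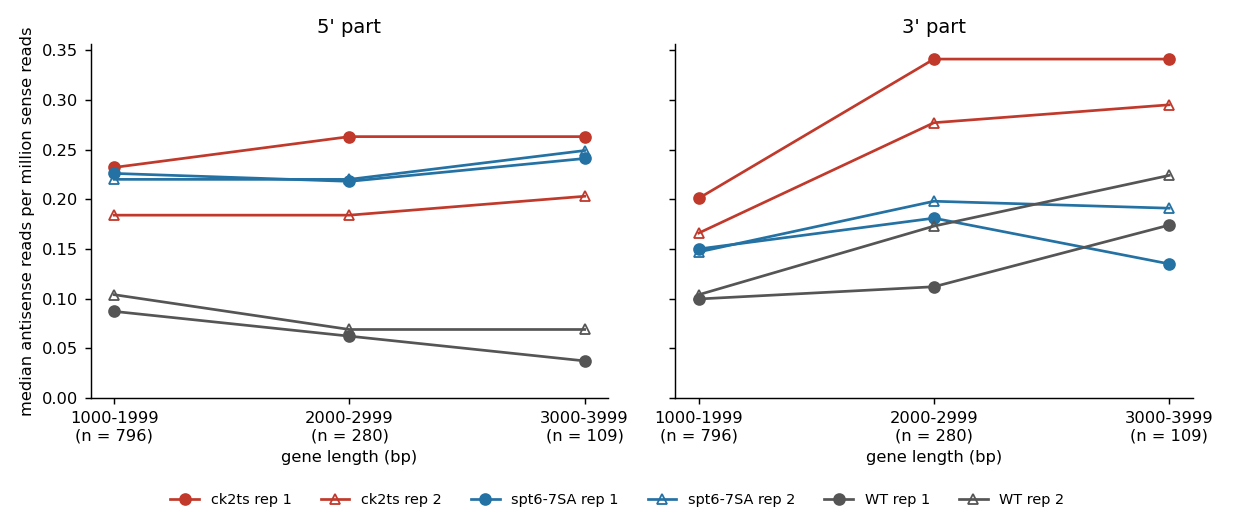
Median antisense reads per 1000000 sense reads in the 5' part (left) and 3' part (right) of the genes, by length class, 1 line per library. In the 5' part all 4 mutant libraries lie above WT in each class; in the 3' part the spt6-7SA libraries overlap WT at 3000 to under 4000 bp, at 0.135 and 0.191 in spt6-7SA against 0.174 and 0.224 in WT.

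Single genes show both directions. VPS54, a gene for tethering vesicles at the Golgi, had 89 and 45 antisense reads in its 5' part in ck2ts and 117 and 95 in spt6-7SA, against 1 and 1 in WT. Its 3' part had 38 and 23 in ck2ts, with 29 and 25 in spt6-7SA, against 31 and 22 in WT. Per 1000000 sense reads, the 3' part stood at 0.588 and 0.424 in ck2ts and at 0.436 and 0.366 in spt6-7SA, against 0.386 and 0.380 in WT. The mutants thus stood apart from WT in the 5' part, while in the 3' part ck2ts was higher without passing the test (log2 fold change 0.41, adjusted p = 0.361) and spt6-7SA overlapped WT. The change differed between the parts in both mutants (adjusted p for the difference between the parts = 1.38e-06 in ck2ts and 8.21e-08 in spt6-7SA). SEC8, an exocyst gene, had 25 and 13 antisense reads in its 5' part in ck2ts and 9 and 5 in spt6-7SA, against 0 and 0 in WT. With a floor of 3 reads over the WT group, that is at least 14.7-fold higher in ck2ts and at least 4.79-fold higher in spt6-7SA.

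UTP5 had 1001 and 514 reads in its 5' part in ck2ts and 39 and 21 in spt6-7SA, against 11 and 11 in WT. Its 3' part had 54 and 32 in ck2ts, with 27 and 46 in spt6-7SA, against 52 and 39 in WT, so the ck2ts gain lay outside the 3' part (log2 difference between the parts -6.14, SE 0.49, adjusted p = 2.70e-10). MSN5 (chromosome IV, 1141168 to 1144842, plus strand), a nuclear exporter gene, differed in opposite directions in its parts. Its 5' part had 30 and 28 reads in spt6-7SA and 11 and 0 in ck2ts, against 2 and 3 in WT, and its 3' part had 19 and 35 in spt6-7SA, with 59 and 34 in ck2ts, against 223 and 118 in WT. The log2 difference between the parts was -6.12 in spt6-7SA (SE 0.70, adjusted p = 2.09e-07). MDM1, a gene for contacts between the nuclear membrane and the vacuole, was close behind in spt6-7SA, with 61 and 55 reads in its 5' part in spt6-7SA and 18 and 12 in ck2ts, against 0 and 3 in WT, and with 153 and 143 in its 3' part in spt6-7SA and 129 and 73 in ck2ts, against 227 and 150 in WT.

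PRP43 and GDH2 went the other way. PRP43 (chromosome VII, 281634 to 283937, minus strand), a helicase gene of splicing and ribosome assembly, had 60 and 36 antisense reads in its 3' part in ck2ts and 2 and 2 in spt6-7SA, against 1 and 4 in WT. Its 5' part had 11 and 5 in ck2ts, with 12 and 8 in spt6-7SA, against 6 and 7 in WT. The ck2ts gain was larger in the 3' part, at the end shown above, by 3.94 on the log2 scale (SE 0.89, adjusted p = 0.00216). GDH2, for a glutamate dehydrogenase, had 73 and 66 reads in its 5' part in ck2ts and 158 and 172 in spt6-7SA, against 270 and 156 in WT, and 37 and 25 in its 3' part in ck2ts and 40 and 39 in spt6-7SA, against 14 and 9 in WT. The log2 difference between its parts was 3.02 in ck2ts (SE 0.45, adjusted p = 1.4e-05) and 2.13 in spt6-7SA (SE 0.44, adjusted p = 0.000903). SPR28, a septin gene of spore formation, and UTP18, another processome gene, also passed with a greater change in the 3' part in ck2ts, and YDR210W-A and BDS1 did so in both mutants. Of the 50-base stretches of YDR210W-A, 92.9% occur elsewhere in the genome. The ck2ts calls of SPR28 and UTP18 and the spt6-7SA calls of YDR210W-A and BDS1 were each lost without any 1 of at least 2 of the libraries, and SPR28 had 6 and 5 reads in its 3' part in ck2ts and 6 and 10 in spt6-7SA, against 0 and 0 in WT.

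NOP58, for a core protein of box C/D small nucleolar particles, had nearly all of its antisense reads in the 3' part. There it had 207 and 91 reads in ck2ts and 382 and 333 in spt6-7SA, against 1162 and 539 in WT. Over the whole gene it had 214 and 94 antisense reads in ck2ts and 390 and 345 in spt6-7SA, against 1169 and 557 in WT. In antisense CPM the gene stood at 3.31 and 1.73 in ck2ts, with 5.87 and 5.06 in spt6-7SA, against 14.6 and 9.61 in WT. The log2 fold change was -2.25 in ck2ts (SE 0.28, adjusted p = 2.64e-05) and -1.15 in spt6-7SA (SE 0.26, adjusted p = 0.00449), and the second call was lost without spt6-7SA replicate 2. Its sense reads stood at 114 and 156 CPM in ck2ts and 228 and 256 CPM in spt6-7SA, against 412 and 454 CPM in WT. Both strands were therefore lower in the mutants.

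Genes of elongation, RNA decay, stress and ribosome assembly were looked up among the set. Of 41 genes for chromatin factors of elongation, 9 were among the genes tested for antisense, of which 8 rose in ck2ts and 5 in spt6-7SA, and none fell. Among all 1168 genes of the set tested, 62.5% rose in ck2ts and 47.9% in spt6-7SA, and the 5 of 9 in spt6-7SA is near that share. Their median log2 fold change was 1.66 in ck2ts and 0.70 in spt6-7SA, beside 1.11 and 0.68 over the genes of the set tested. The 0.70 in spt6-7SA is thus near the median of the set. Over all genes tested the medians were 0.62 and 0.30. These medians are also the background for the antisense medians of the other lists. LEO1, a subunit of the Paf1 complex, had 3.92 and 2.49 antisense CPM in ck2ts and 3.07 and 2.54 in spt6-7SA, against 0.773 and 0.604 in WT. RPD3, a histone deacetylase gene, had 1.19 and 0.645 antisense CPM in ck2ts and 0.602 and 0.601 in spt6-7SA, against 0.174 and 0.0863 in WT. On the sense strand, 7 of the 41 genes rose and 17 fell in ck2ts, and 4 rose and 10 fell in spt6-7SA. Of all genes tested, 32.5% rose and 32.3% fell in ck2ts, and 26.7% rose and 24.1% fell in spt6-7SA, which is also the background for the sense counts of the other lists.

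For early termination and nuclear RNA decay, antisense rose at 5 of 6 genes tested in ck2ts and at 3 in spt6-7SA, with no fall and a median log2 fold change of 1.36 in ck2ts and 0.85 in spt6-7SA. In the whole set, 62.5% of genes tested rose in ck2ts and 47.9% in spt6-7SA. The 3 of 6 in spt6-7SA is near that share, and 2 of these calls, RAT1 and NRD1, were lost without spt6-7SA replicate 2. TRF5, a noncanonical poly(A) polymerase gene that feeds the exosome, had 7.02 and 6.71 antisense CPM in ck2ts and 1.47 and 1.38 in spt6-7SA, against 0.473 and 0.535 in WT. On the sense strand 26 of the 28 genes of this list fell in ck2ts and 18 in spt6-7SA, and no gene rose. For cytoplasmic decay of noncoding RNA, 12 of 20 genes fell on the sense strand in ck2ts and 8 in spt6-7SA, where 1 rose, and falls came to 32.3% in ck2ts and 24.1% in spt6-7SA of all genes tested. NAM7, a nonsense-mediated decay helicase gene, had 3.0 and 2.06 antisense CPM in ck2ts and 0.301 and 0.337 in spt6-7SA, against 0.125 and 0.207 in WT. SKI2, a cytoplasmic exosome helicase gene, had 4.4 and 2.97 antisense CPM in ck2ts and 4.36 and 4.21 in spt6-7SA, against 1.53 and 1.35 in WT. Sense reads of many decay genes were thus lower in the strains that gained antisense reads, and their part in that gain was not tested.

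All 35 stress genes measured rose on the sense strand in ck2ts and 31 did in spt6-7SA, yet the antisense strand of the 10 in the set did not move one way. It rose at 4 and fell at 3 in ck2ts, and rose at 6 and fell at 1 in spt6-7SA, with a median log2 fold change of -0.34 in ck2ts and 1.13 in spt6-7SA. In the whole set, antisense rose at 62.5% and fell at 8.65% of genes tested in ck2ts, and rose at 47.9% and fell at 6.25% in spt6-7SA. GAD1, glutamate decarboxylase, had 3.27 and 1.88 antisense CPM in ck2ts and 2.30 and 2.21 in spt6-7SA, against 0.424 and 0.569 in WT. NTH1, the neutral trehalase gene, had 2.78 and 2.99 antisense CPM in spt6-7SA and 0.232 and 0.313 in ck2ts, against 0.212 and 0.362 in WT. Of 52 ribosome biogenesis genes, 52 fell on the sense strand in ck2ts and 51 in spt6-7SA, while antisense of the 6 tested here rose at 3 and fell at 1 in ck2ts and fell at 1 in spt6-7SA, NOP58 in each case. Their antisense medians were 0.86 in ck2ts and -0.26 in spt6-7SA on the log2 scale. Of the ck2ts rises, those of PWP1 and UTP13 were lost without ck2ts replicate 1.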

How the data were processed

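The authors deposited, for each library, unnormalised read counts on both strands of every annotated exon, and the same for a 5' and a 3' part of it. Per the submitters' processing notes, reads were trimmed with Trimmomatic, aligned with BWA to build R64 and handled with SAMtools; per the labels' protocols libraries were stranded, 50 bp single-end and depleted of ribosomal RNA, and exons came from Ensembl release 77. Tool versions are not given in the sources used here.

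Counts of 7553 exons were summed to 7126 genes. Groups were compared with the edgeR 4.0.16 quasi-likelihood test (R 4.3.3) over all 6 libraries, filterByExpr with a minimum count of 10, Benjamini-Hochberg adjustment over all genes tested and a threshold of 0.05. This left 6776 genes for sense, 6558 for antisense, 4188 and 3838 for its 5' and 3' parts. Library size and TMM factor for antisense counts were those of the sense counts. Antisense against sense, and the 3' against the 5' part, were interactions with library as a block. The test scripts were also run on simulated counts with known changes. These used spreads near those fitted here and placed changes only at genes above a minimum of WT antisense reads. The outcome is not given here, so it lends no support to the calls. Starts in the files count from 0 and 1 was added. Of the 1185 genes, 1184 were in the reference annotation and 1183 had its coordinates; start and stop codons of all were read from the reference genome at the files' coordinates. Medians over genes are unfiltered, on log2 of CPM plus 0.1. Counts of a gene varied between libraries of a strain with a common coefficient of 0.116 (sense) and 0.159 (antisense). Copies were sought as 50-base words found elsewhere in the genome. DESeq2 1.42.0, other scalings and filters, a replicate block, left-out libraries and other distances were alternatives.

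The genes and lists were chosen with earlier results of these data known. Named genes were, leaving out construct and target genes, the 10 largest rises and 5 largest falls that passed per mutant (4 and 3 between the mutants) with a mean of at least 3 antisense CPM in a group and no overlap of libraries, the 3 largest of each interaction, the 5 with the most WT antisense per kb and the 3 nearest the median change. Genes of the lists were the up to 4 with the smallest p.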

Additional observations from a re-analysis of the deposited data

How the results depend on the processing

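No count or ratio over the set reversed its direction. Of 109 changes of named genes under each alternative, 1253 values kept direction and call, 43 lost the call, 4 gained one and 7 changed sign. Scaled by antisense totals, SMA2 stood at -0.05 in ck2ts (0.49 otherwise, where it had passed) and at -0.09 in spt6-7SA, and GAS2 at -0.19, BIO5 at -0.09 and GAL1 at -0.13 in spt6-7SA, none of them called there. With 1 library left out, GAS2 ran from -0.17 to 0.11 in ck2ts and from -0.02 to 0.25 in spt6-7SA. Scaling by antisense totals also gave calls for GAS2 (-0.58) and BIO5 (-0.79) in ck2ts and GAL10 (-0.51) in spt6-7SA. Of counts and ratios over the set, 347 kept within the limits used (1.5 times, or 1 SD for a ratio) and 61 moved. Scaling antisense counts by antisense totals moved the median of all genes tested from 0.62 to 0.07 on the log2 scale in ck2ts, from 0.30 to -0.01 in spt6-7SA and from -0.26 to -0.01 between the mutants, and that of the genes of the set from 1.11 to 0.56, from 0.68 to 0.38 and from -0.29 to -0.05; the named genes other than those above kept their direction. Under it 18.9% of the genes fell in ck2ts and 12.2% in spt6-7SA over the whole gene, 26.0% rose in spt6-7SA against ck2ts, 10.1% in ck2ts and 3.04% in spt6-7SA fell in the 5' part, 14.5% rose in the 3' part in ck2ts, 9.70% and 5.15% fell there, and antisense against sense fell at 24.0% and 17.0%. All shares here are of all genes of the set, tested or not. DESeq2 gave 2.62% and 0.506% falls in the 5' part, 16.6% and 4.39% rises and 2.03% and 1.35% falls in the 3' part in ck2ts and spt6-7SA, and a change greater in the 3' part at 1.27% and 0.169% and smaller at 6.41% and 6.16%. A mean of at least 20 reads gave rises of 20.6% and 19.1% in the 5' part and 14.3% in the 3' part in ck2ts, since fewer genes were tested. Without TMM factors 3.97% fell in spt6-7SA and its summed ratio was 1.5. The median in place of the sum gave ratios of 2.42 in ck2ts and 1.83 in spt6-7SA. With 250 bp (1931 genes) or 1000 bp (761 genes) the spt6-7SA ratio was 1.31 or 1.47, beside 1.4 for 500 bp. The cause of these shifts was not tested.

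Same-numbered libraries deviated together in sense counts (correlations 0.36 to 0.52) and little in antisense counts (0.05 to 0.15). With 2 numbers per strain and no label of a shared culture or batch, they were not treated as pairs. With the replicate block 62.5% of the genes rose in ck2ts and 47.3% in spt6-7SA, falls in the 3' part in spt6-7SA came to 4.30%, BIO5 passed in ck2ts (-0.24), and sense reads rose at 536 and fell at 400 genes in ck2ts, and rose at 487 and fell at 372 in spt6-7SA.

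With 1 library left out, and so 1 library assumed to vary like the others, shares ran as follows. Over the whole gene 54.0 to 63.3% rose and 6.84 to 9.70% fell in ck2ts, and 33.4 to 50.6% rose and 3.04 to 7.26% fell in spt6-7SA; for spt6-7SA against ck2ts 9.87 to 17.3% rose and 23.5 to 40.1% fell. In the 5' part 28.2 to 39.2% rose and 2.62 to 4.30% fell in ck2ts, and 24.4 to 37.3% rose and 0.253 to 1.86% fell in spt6-7SA. In the 3' part 15.8 to 24.6% rose and 2.95 to 4.14% fell in ck2ts, and 3.97 to 12.2% rose and 0.928 to 3.71% fell in spt6-7SA. Antisense against sense rose at 45.2 to 54.3% and fell at 11.7 to 14.1% in ck2ts, and rose at 26.7 to 41.1% and fell at 5.40 to 11.7% in spt6-7SA. The 3' change was greater at 1.60 to 2.87% and smaller at 5.40 to 9.62% in ck2ts, and greater at 0.0844 to 1.27% and smaller at 5.23 to 11.4% in spt6-7SA. Sense rose at 34.7 to 37.9% and fell at 25.8 to 28.5% in ck2ts, and rose at 23.2 to 33.9% and fell at 16.2 to 26.2% in spt6-7SA. Summed ratios ran from 1.60 to 1.83 in ck2ts and from 1.38 to 1.42 in spt6-7SA.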

Other observations

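Of the 3 genes with the most antisense reads per kb in WT, 1 rose in ck2ts and none passed in spt6-7SA. GAS2, a spore wall gene, had 96.3 and 102 antisense CPM in ck2ts and 109 and 110 in spt6-7SA, against 111 and 91.3 in WT, with sense reads of 14.8 and 22.3 CPM in ck2ts and 31.4 and 29.1 CPM in spt6-7SA, against 28.8 and 40.5 CPM in WT. Its libraries overlapped, and antisense passed in neither mutant (log2 fold changes -0.04 and 0.11). BIO5, a transporter gene of biotin synthesis, had 37.4 and 30.8 antisense CPM in ck2ts and 49.2 and 44.1 in spt6-7SA, against 41.6 and 38.8 in WT, and did not pass in either. SMA2, a gene of spore membrane assembly, rose in ck2ts (log2 fold change 0.49, adjusted p = 0.00348), with 34.2 and 33.3 antisense CPM there and 27.8 and 27.6 in spt6-7SA, against 24.5 and 23.4 in WT. Scaled by antisense totals, SMA2 did not rise (-0.05), while GAS2 and BIO5 passed as lower in ck2ts (-0.58 and -0.79). At all 3 genes antisense CPM exceeded sense CPM in all 6 libraries. YJR028W and YGR027W-A, the next in rank, are retrotransposon genes whose 50-base words all occur elsewhere, so their reads cannot be assigned to one copy.

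The promoter between GAL10 and GAL1 also drives the histone construct of ck2ts and WT. GAL10 had 55.7 and 47.3 antisense CPM in ck2ts and 21.2 and 20.4 in spt6-7SA, against 25.3 and 22.8 in WT, and rose in ck2ts (log2 fold change 1.10, adjusted p = 5.22e-06). Its 3' part held 2 and 1 of these reads in ck2ts and 12 and 13 in spt6-7SA, against 1 and 4 in WT. GAL1 had 2.12 and 1.62 antisense CPM in ck2ts and 4.84 and 4.46 in spt6-7SA, against 3.81 and 4.47 in WT, and fell in ck2ts (log2 fold change -1.14, adjusted p = 0.00012). The genes nearest to the median change in ck2ts were PGM1, YTP1 and MRX16; PGM1 had 21.8 and 21.1 antisense CPM in ck2ts and 16.3 and 14.9 in spt6-7SA, against 9.41 and 10.7 in WT.

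Of the set, 27 genes are annotated as retrotransposon genes and gave 2.89 to 5.70% of its antisense reads. Their antisense rose at 4 and fell at 7 in ck2ts and rose at 9 and fell at 4 in spt6-7SA. Among 97 genes with more than 10% of their 50-base words elsewhere, 33 rose and 16 fell in ck2ts and 38 rose and 8 fell in spt6-7SA; among the remaining 1088 genes, 697 rose and 85 fell in ck2ts and 522 rose and 65 fell in spt6-7SA.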
